A study of Mus musculus with 8 samples.

Results

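Late pregnancy was compared with mid-pregnancy in the left ventricle of the mouse heart, with 2 arrays of day 19 set against 2 arrays of day 12. These are 4 of the 8 arrays of the series. All annotated genes were read: 22180 genes were measured, and 13588 of them were tested because their mean reached the median of all values, 5.20 on the log2 scale, in at least 1 of the groups. All animals were C57BL/6 females of 3 to 4 months that had been purchased as timed pregnancies. The day 12 group consisted of replicates 2 and 3 and the day 19 group of replicates 1 and 2; the protocol gives the late group as 18/19 days. The labels name no genetic change and no drug given before the animals were killed, other than isoflurane anaesthesia. The ventricle was cut into 3 pieces and RNA came from 1 of them, so an array reads a mixture of cell types. Values are log2 RMA intensities, in which 1 unit is a 2-fold difference, and a difference is day 19 minus day 12. The arrays do not tell fewer cells of a type from less RNA per cell. Nothing in the labels states whether arrays of a group came from separate animals, so p-values measure only the spread between these samples, which may be technical.

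During pregnancy the heart pumps a growing blood volume, and the ventricle enlarges in a reversible way. Myosin heavy chains, natriuretic peptides and ankyrin repeat proteins are widely used readouts of the load on cardiac muscle, while uncoupling proteins, fatty acid enzymes and the pyruvate dehydrogenase kinases describe its choice of fuel. Potassium channels set how fast the muscle repolarises after each beat, and the circadian clock drives daily rhythms in many of these genes.

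Both day 19 arrays carried features of their own, which bear on every result that follows. Of the genes tested, 648 (4.77%) differed by more than 1 log2 unit between the 2 day 19 arrays, against 65 (0.478%) between the 2 day 12 arrays. The standard deviation of the difference was 0.558 within day 19 and 0.238 within day 12. Day 19 replicate 2 had high interferon, antigen presentation and lymphocyte genes. Atrial genes were high on day 19 replicate 1 and also on day 12 replicate 3: Myl7, the atrial myosin light chain, stood at 4.69 and 10.04 on day 12 replicates 2 and 3 and at 11.76 and 4.56 on day 19 replicates 1 and 2. The ventricular markers matched the label on all 4 arrays, with Myl3, the ventricular essential light chain, at 12.13 and 12.12 at day 12 and at 12.05 and 11.93 at day 19. For this reason the value of each array is given, and the difference of each day 19 array from the day 12 mean is the value that results when the other is left out.

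No gene passed the threshold. In limma, 0 genes (0%) were higher and 0 (0%) lower at an adjusted p of 0.05, and the smallest adjusted p was 0.767. At an unadjusted p of 0.05, limma gave 249 genes (1.83%) that were higher at day 19 and 273 (2.01%) that were lower, 522 together, where 679 would be expected by chance. The typical standard error of a difference was 0.166. A second description, without a test, asked where the groups did not overlap. Both day 19 arrays lay above both day 12 arrays for 2220 genes (16.3%) and below them for 3189 genes (23.5%). The gap between the groups exceeded 1 log2 unit for 8 genes that were higher and for 0 that were lower, and it exceeded 0.5 for 44 and 21. The median difference over all genes tested was -0.044, and 57.5% of them were lower at day 19. With the filter set 1 log2 unit higher the median was -0.076. Counts of non-overlapping members below are to be read against 16.3% and 23.5%, and counts of lower members against 57.5%. A gene that reached the filter only at day 19 could not have been lower. The reverse held for a gene that reached it only at day 12. None of the genes named below passed the adjusted threshold in this comparison.

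The genes with the widest upward gap were led by secreted and contractile proteins. Cxcl13, a chemokine that attracts B cells, was 5.81 and 5.75 on the day 12 arrays and 7.96 and 10.44 on those of day 19, which differ by 3.42 ± 0.79 (SE, n = 2 per group) or 10.7-fold. Both day 19 arrays were high, and replicate 2 was higher than replicate 1 by 2.48. Myh7, the slow beta myosin heavy chain, was 6.32 and 6.97 at day 12 and 8.99 and 9.69 at day 19, 2.70 ± 0.33 or 6.49-fold. Ccl2, a monocyte chemokine, was 6.66 and 6.92 against 8.51 and 10.94. Spon2, a secreted matrix protein of the spondin family, was 5.80 and 5.32 against 7.13 and 7.19, 1.60 ± 0.20. For Spon2 the 2 day 19 arrays lay within 0.068 of each other, unlike those for the chemokines.

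Several further genes of this group were nearly equal on the 2 day 19 arrays. Fos, a subunit of the transcription factor AP-1, read 4.79 and 4.75 at day 12 and 5.90 and 5.90 at day 19, 1.13 ± 0.13. Npas2, a clock transcription factor, read 6.57 and 6.55 against 7.46 and 7.47, 0.91 ± 0.13. Lyz1, a lysozyme, read 6.45 and 6.66 against 7.64 and 7.63. Lyz1 has a close copy in Lyz2, and how far the probe set tells them apart is uncertain. Lyz2 itself read 10.33 and 10.62 against 10.68 and 11.57, so the pattern of the 2 probe sets was not the same. Tnfrsf12a, the receptor of the cytokine TWEAK, was 8.45 and 8.53 at day 12 and 9.93 and 9.58 at day 19, 1.26 ± 0.17 or 2.40-fold. Timp1, an inhibitor of matrix metalloproteinases, was 6.24 and 6.50 against 7.59 and 8.04. Ptgs2, the inducible cyclooxygenase, was 5.26 and 5.61 against 6.59 and 7.44. Serpina3n, an acute-phase protease inhibitor, was 8.09 and 8.22 against 9.25 and 10.28, and Ccl7 was 7.26 and 7.74 against 8.61 and 11.35.

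The widest downward gaps were smaller. Lgals4, the lectin galectin-4, was 8.46 and 8.51 at day 12 and 7.49 and 7.34 at day 19, -1.07 ± 0.14. Mrgprh, an orphan receptor of the Mas-related family, was 7.25 and 7.19 against 6.30 and 5.82, -1.16 ± 0.20. Dbp, a clock-driven transcription factor, was 9.10 and 9.28 against 8.35 and 7.67, -1.18 ± 0.26. In all 3 the highest day 19 array lay more than 0.7 below the lowest day 12 array. Ucp3, a mitochondrial uncoupling protein of muscle, was 7.85 and 7.65 against 6.96 and 6.71, -0.91 ± 0.17. Pnmt, the enzyme that makes adrenaline from noradrenaline, was 6.10 and 5.91 against 5.14 and 5.28, -0.79 ± 0.15. Nav3 differed by -0.79, the peptide transporter Slc15a2 by -0.96, Dipk2b by -0.80, Ccdc85a by -0.70, Uckl1os by -0.72, the muscle protein Ky by -0.73 and neuritin (Nrn1) by -0.85. The plot of the widest gaps shows these 24 genes.

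**Figure D1:**
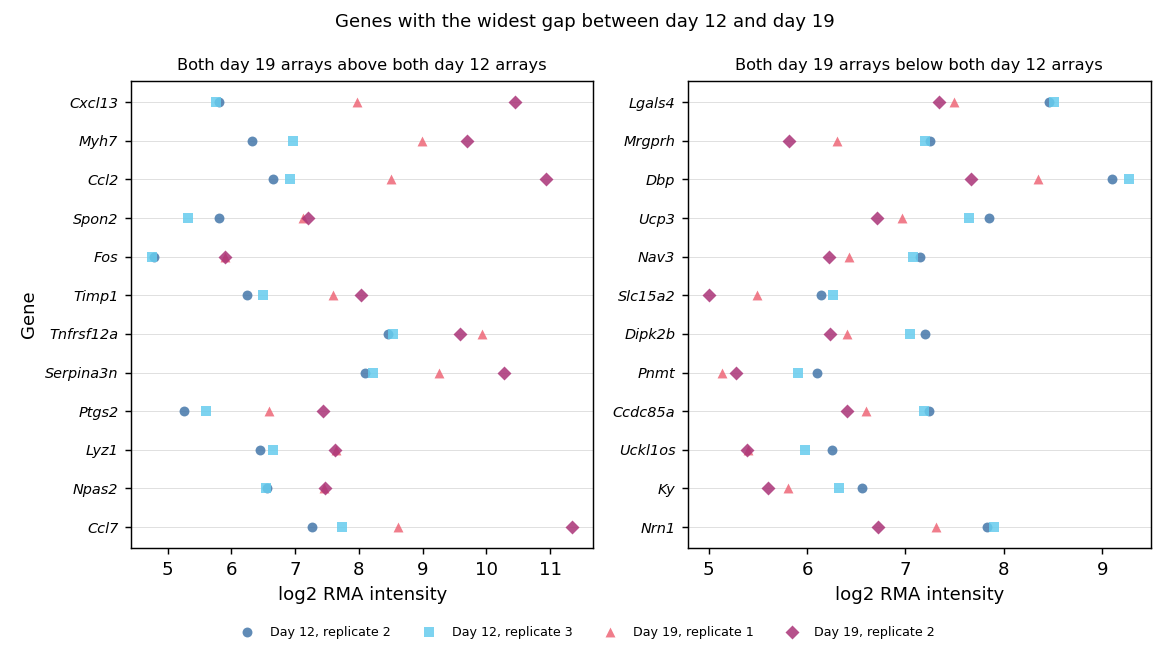
Log2 RMA intensity (horizontal axis) of the 12 genes with the widest upward gap (left) and the 12 with the widest downward gap (right), 1 row per gene and 1 marker per array. Day 12 and day 19 markers do not overlap in any row, because the genes were chosen by that gap; for Cxcl13, Ccl2 and Ccl7 the 2 day 19 arrays lie over 2 units apart, while for Fos, Npas2 and Lyz1 they lie on each other.

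Most genes of the hypertrophy and mechanical load list were higher. The list was chosen with earlier results of these data known, so its counts describe it and do not test it. Of 17 members tested, 14 were higher at day 19 and 3 lower, with a median difference of 0.67 beside -0.044 for all genes tested. Both day 19 arrays lay above both day 12 arrays for 12 of the 17 (70.6%, against 16.3% of all genes tested), and for 0 they lay below. In limma 10 of the 17 were higher at an unadjusted p under 0.05, against 1.83% of all genes tested. The list averaged 0.83 above the day 12 mean on day 19 replicate 1, with 17 members higher, and 0.66 on replicate 2, with 12 higher. Its medians on these arrays were 0.64 and 0.70. Mybphl, an atrial gene in the list, lay at 2.91 on replicate 1 and -0.42 on replicate 2, which raised the first mean and lowered the second. The promoter windows of Myh7 and Nppb are printed below because these members had the smallest unadjusted p of the list in limma and both hold the same letter pattern. Capitals mark the M-CAT pattern CATTCC on either strand, a motif known from cardiac muscle promoters as the binding sequence of TEAD factors. Both windows hold it on the strand opposite to the gene. They come from RefSeq on GRCm38.p6 and run from 250 bases before to 50 bases after the start, on the minus strand at chr14:54994577-54994876 and on the plus strand at chr4:147985650-147985949.
Myh7: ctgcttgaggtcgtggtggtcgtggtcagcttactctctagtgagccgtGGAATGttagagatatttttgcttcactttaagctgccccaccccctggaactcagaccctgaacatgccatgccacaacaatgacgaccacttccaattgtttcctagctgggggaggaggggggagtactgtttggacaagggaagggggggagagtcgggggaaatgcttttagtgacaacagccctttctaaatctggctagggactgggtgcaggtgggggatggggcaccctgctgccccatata
Nppb: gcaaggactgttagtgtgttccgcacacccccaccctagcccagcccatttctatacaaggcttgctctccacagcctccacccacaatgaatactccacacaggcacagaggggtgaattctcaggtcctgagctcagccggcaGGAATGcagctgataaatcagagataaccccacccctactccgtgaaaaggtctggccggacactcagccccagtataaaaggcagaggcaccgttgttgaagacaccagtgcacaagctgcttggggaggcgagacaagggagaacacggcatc
The pattern was found in the windows of 5 members, Acta1, Acta2, Ankrd1, Myh7 and Nppb, of the 14 that have a window, or 29.4% of their 17 windows, against 14.7% of all 32851 windows of that length. Acta1 and Acta2, which also hold it, were not higher at day 19: smooth muscle actin (Acta2) was 10.94 and 10.20 at day 12 and 10.59 and 10.23 at day 19. Myh7 has 2 windows, of which the one with the match is shown.

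Natriuretic peptides and stress-responsive muscle proteins were higher on both late arrays. Nppb, which encodes B-type natriuretic peptide, was 10.96 and 11.003 at day 12 and 11.74 and 11.81 at day 19, 0.79 ± 0.14 or 1.73-fold. The 2 arrays of each group lay close together. Nppa, the atrial natriuretic peptide, was 11.23 and 11.13 against 12.66 and 11.77, 1.04 ± 0.31. The higher Nppa value was that of the array with high atrial markers, while day 12 replicate 3, which also had high Myl7, was not high in Nppa. Ankrd1, a titin-associated ankyrin repeat protein, was 11.06 and 11.78 against 12.27 and 12.70, 1.06 ± 0.29. Rcan1, a regulator and target of calcineurin, was 8.63 and 8.56 against 9.67 and 9.30, 0.89 ± 0.18. Nmrk2, a muscle kinase that makes NAD from nicotinamide riboside, was 6.57 and 6.03 against 7.31 and 8.36, 1.54 ± 0.39. The stress factor Atf3 differed by 1.34 ± 0.38, the growth regulator Myc by 0.63, the uridine kinase Uck2 by 0.67 and the extracellular chaperone Clu by 0.34.

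Other members of the list did not separate the groups. Acta1, the skeletal actin gene, was 9.73 and 9.43 at day 12 and 10.21 and 8.78 at day 19, with a difference of -0.081 that is 0.64 on replicate 1 and -0.80 on replicate 2. Xirp2 and Fhl1 were likewise above the day 12 mean on replicate 1 and below it on replicate 2. The fast myosin heavy chain Myh6 was 12.56 and 12.40 against 12.48 and 12.34, a difference of -0.068, and its arrays overlapped between the groups. Among 24 sarcomere genes 6 were higher and 18 (75%) lower, against 57.5% of all genes tested, with a median of -0.068. Without overlap 3 (12.5%) lay above and 6 (25%) below, near the 16.3% and 23.5% of all genes tested. Myom2, an M-band protein, was 10.69 and 10.75 against 11.05 and 11.06, and Tcap, the titin cap, was 10.51 and 10.10 against 9.54 and 10.17. The plot of hypertrophy markers shows each array.

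**Figure D2:**
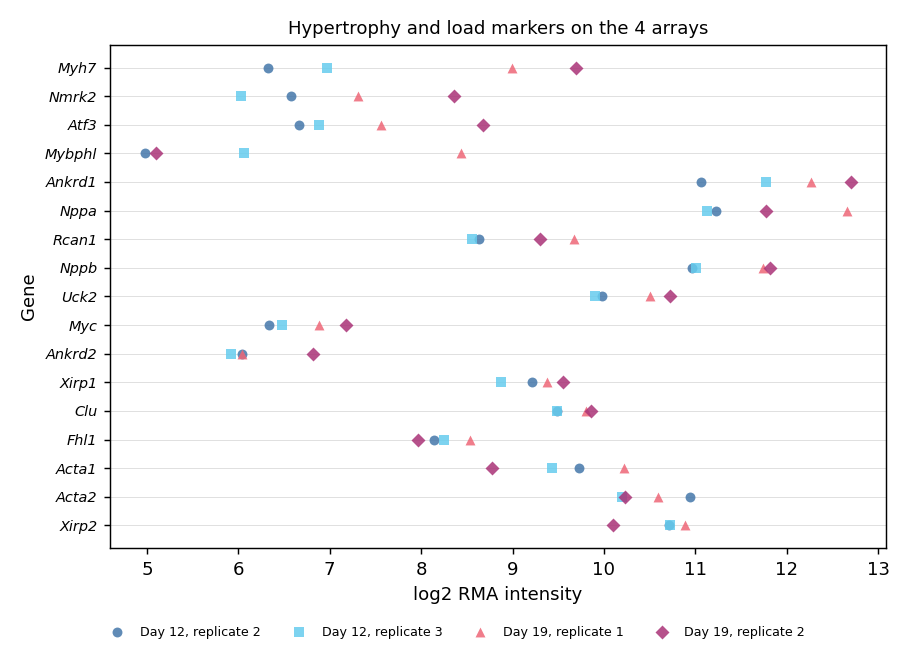
Log2 RMA intensity (horizontal axis) of the 17 tested hypertrophy and load markers, 1 row per gene in order of the difference and 1 marker per array. The 2 day 19 markers lie to the right of both day 12 markers in 12 rows, by the widest margin for Myh7, and Mybphl, an atrial gene, is high on day 19 replicate 1 (8.44) and not on replicate 2 (5.10).

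Immediate-early genes, most of which encode transcription factors induced within minutes of a stimulus, were higher as a group. All 23 members tested had a positive difference, the smallest being 0.0008 for Klf4, with a median of 0.52. The groups did not overlap for 17 of 23 (73.9%), all of them upward, against 16.3% of all genes tested. Fos, with a day 12 mean of 4.77, was tested only because of its day 19 mean and could not have been lower. The list averaged 0.30 on replicate 1 and 0.66 on replicate 2, and 20 and 21 members were above the day 12 mean on them. Beside Fos, given above, Egr1 was 6.34 and 6.06 at day 12 and 6.93 and 7.61 at day 19, 1.07 ± 0.27. Egr3 was 5.50 and 5.52 against 6.14 and 5.97, and the nuclear receptor Nr4a3 was 5.35 and 5.50 against 5.95 and 6.12. The antiproliferative gene Btg2 was 7.75 and 7.87 against 8.31 and 9.08. The widest spread within day 19 was that of Nr4a1, with 7.88 and 9.48, and its replicate 1 value lay between those of day 12, 7.54 and 8.24. Jun, Nr4a2, Klf2 and Klf4 differed by 0.10 or less.

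Chaperone and stress genes of the endoplasmic reticulum were also mostly higher, more so on replicate 2. Of 22 tested, 19 were higher, with a median of 0.22. Without overlap 12 (54.5%) lay above, against 16.3% of all genes tested. The list averaged 0.068 on replicate 1 and 0.40 on replicate 2. Sdf2l1 was 7.34 and 7.27 at day 12 and 7.70 and 8.53 at day 19, Creld2 8.07 and 8.24 against 8.47 and 8.76, and the oxygen-regulated chaperone Hyou1 8.05 and 7.97 against 8.24 and 8.56. The asparagine synthetase gene Asns was 6.70 and 6.67 against 6.97 and 8.13. Heat shock proteins showed no such balance, with 9 of 15 higher and a median of 0.066. In that list Hspa1a, which has a close copy in Hspa1b, was 6.46 and 6.87 against 7.15 and 8.10.

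Among glucocorticoid targets and metallothioneins 7 of 17 were higher and 10 (58.8%) lower (median -0.054), near the 57.5% of all genes tested. The largest positive difference was that of Lcn2, an iron-carrier protein of inflammation, with 6.59 and 6.56 at day 12 and 6.75 and 8.32 at day 19. The metal-binding metallothionein Mt2 was 9.87 and 9.75 at day 12 and 10.36 and 10.42 at day 19, 0.58 ± 0.14, and Mt1 was 9.09 and 9.10 against 9.39 and 9.60. Zbtb16, a zinc finger gene that responds to glucocorticoids, went the other way, with 8.67 and 9.09 against 8.34 and 8.27, and so did Pik3r1 (-0.29) and Klf9 (-0.39). The cell cycle inhibitor Cdkn1a was 9.17 and 9.01 against 9.46 and 10.38, and Nfkbia, an inhibitor of NF-kappaB, was 7.71 and 7.87 against 7.98 and 8.77. Lcn2, Cdkn1a and Nfkbia were higher on replicate 2 than on replicate 1 by 1.56, 0.92 and 0.79. Of the hormone receptor and signalling list, 7 of 20 were higher and 65% lower, against 57.5% of all genes tested. The estrogen receptor gene Esr1 differed by 0.31 and the membrane estrogen receptor gene Gper1 by -0.44. Socs3, an inhibitor of cytokine signalling, was 5.97 and 6.05 against 6.50 and 7.57, and Stat3, which drives it, was 10.11 and 10.05 against 10.35 and 10.86. Another probe set of Socs3 gave 0.35, against 1.02 for the one used.

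Clock genes separated the groups in opposite directions. The clock is a loop in which Arntl with Clock or Npas2 activates the Per, Cry and Nr1d genes and output factors such as Dbp, Tef and Hlf through E-boxes, and the Nr1d repressors in turn hold down Arntl, Npas2 and Nfil3. Of 17 members tested, 4 were higher and 13 (76.5%) lower, against 57.5% of all genes tested, with a median of -0.35. For 10 of the 17 (58.8%) both day 19 arrays lay below both day 12 arrays, against 23.5% of all genes tested. For 2 (11.8%, against 16.3%), Npas2 and Nfil3, they lay above. In limma, unadjusted p-values below 0.05 belonged to 2 higher and 6 lower of the 17 members, against 1.83% and 2.01% of all genes tested. Capitals in the promoter window of Ciart mark the E-box CACGTG, and those in the window of Per3 the D-box TTATGNAA, the element bound by Dbp, Tef, Hlf and Nfil3. The pair is shown because both genes were lower at day 19 and each repeats its element. Both lie on the minus strand, Ciart at chr3:95882179-95882478 and Per3 at chr4:151044616-151044915 (RefSeq, GRCm38.p6).
Ciart: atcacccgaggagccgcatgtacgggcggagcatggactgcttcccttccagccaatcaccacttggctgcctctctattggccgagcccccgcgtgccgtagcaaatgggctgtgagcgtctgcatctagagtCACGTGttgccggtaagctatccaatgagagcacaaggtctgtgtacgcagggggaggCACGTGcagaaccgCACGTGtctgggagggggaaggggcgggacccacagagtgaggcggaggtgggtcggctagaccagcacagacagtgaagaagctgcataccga
Per3: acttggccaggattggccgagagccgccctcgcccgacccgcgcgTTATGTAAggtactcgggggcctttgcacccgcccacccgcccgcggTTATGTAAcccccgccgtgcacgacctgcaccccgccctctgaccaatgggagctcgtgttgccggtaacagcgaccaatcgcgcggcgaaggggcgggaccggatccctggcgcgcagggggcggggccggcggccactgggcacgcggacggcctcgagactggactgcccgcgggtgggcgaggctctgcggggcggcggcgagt
An E-box stood in 28.6% of the 21 windows of 16 clock members, those of Bhlhe41, Ciart, Cry1, Per1 and Tef, against 7.15% of all windows. A D-box, read on both strands, stood in 9.52% of them (Per1 and Per3), against 3.38%.

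The higher members were Npas2, Nfil3, Arntl and, by 0.039, Cry1. Npas2 is given above. Nfil3, a repressor that binds the D-box, was 7.04 and 6.86 at day 12 and 7.39 and 7.55 at day 19, 0.52 ± 0.15. Arntl was 7.38 and 7.09 against 7.91 and 7.36, so its replicate 2 value lay within the day 12 range, and Clock differed by -0.068. Outputs and repressors were among the lower members. Nr1d1 was 9.87 and 9.65 against 9.22 and 8.41, -0.95 ± 0.29. Nr1d2 was 9.10 and 9.18 against 8.88 and 8.36. Ciart, a repressor of the clock, was 6.43 and 6.73 against 5.85 and 6.08, -0.61 ± 0.18. Per3 was 6.83 and 7.28 against 6.55 and 6.30, -0.63 ± 0.21. Tef was 7.25 and 7.41 against 6.95 and 6.60, and Hlf was 7.24 and 7.72 against 7.04 and 6.48. A second probe set of Tef gave 0.052, against -0.55 for the one used. The list median was -0.16 on replicate 1 and -0.58 on replicate 2. The labels do not give the hour of sacrifice, and its part in the result was not tested.

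**Figure D3:**
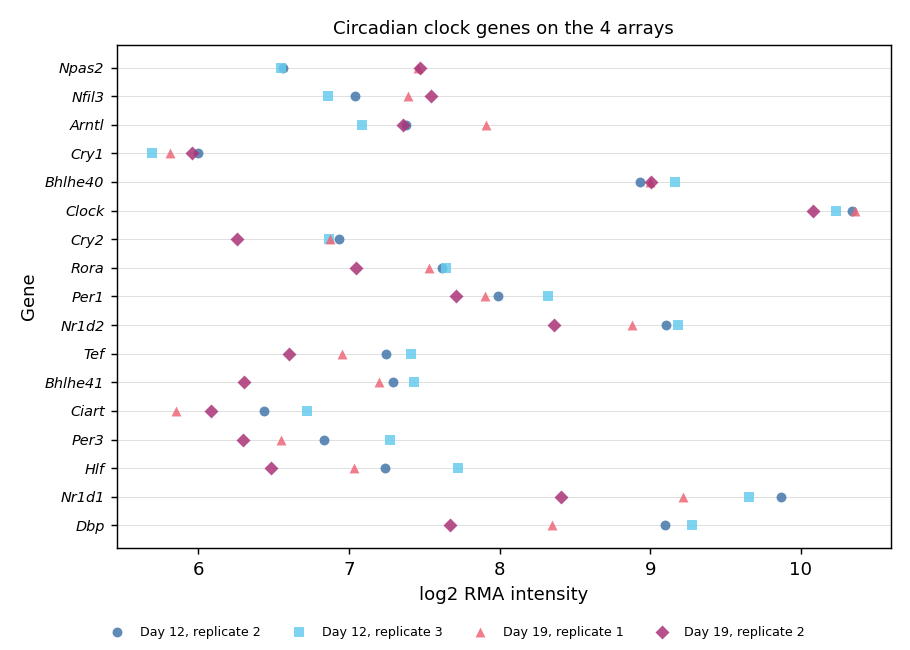
Log2 RMA intensity (horizontal axis) of the 17 tested circadian clock genes, 1 row per gene in order of the difference and 1 marker per array. Npas2 and Nfil3 at the top lie to the right at day 19 on both arrays, and 10 of the lower rows, Dbp with the largest difference (-1.18), lie to the left.

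Most genes of fuel use had small negative differences, which were larger on replicate 2. Of 15 genes that respond to the fatty acid receptors of the PPAR family, 4 were higher and 11 (73.3%) lower, with a median of -0.19. Without overlap 8 (53.3%) lay below. The shares of all genes tested were 57.5% lower and 23.5% below without overlap. Ucp3, given above, was far from the rest: the next, the lipid droplet protein Plin5, was 8.88 and 8.56 at day 12 and 8.59 and 8.18 at day 19. Pdk4, the kinase that restrains pyruvate dehydrogenase, was 11.51 and 11.38 against 11.30 and 11.33, a difference of -0.13. Angptl4, an inhibitor of lipoprotein lipase, was 6.30 and 5.87 against 6.49 and 6.20, 0.26 ± 0.21. Neither differed by as much as Ucp3. Of 17 beta-oxidation enzymes 15 (88.2%) were lower (median -0.18), and 6 of 17 (35.3%) lay below without overlap. Ehhadh, a peroxisomal enzyme, was 6.58 and 6.58 against 6.18 and 5.70, -0.64 ± 0.20, while the mitochondrial enzymes ranged from -0.36 (Etfa) to 0.08 (Eci1).

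Of 44 respiratory chain subunit genes tested, 40 (90.9%) had a negative difference, against 57.5% of all genes tested, and the median was -0.18. The list averaged -0.017 on replicate 1 and -0.36 on replicate 2, where the average of all genes tested was 0.013 and -0.037. Only 12 of the 44 (27.3%) lay below without overlap, a share near the 23.5% of all genes. Ndufa1 was 9.31 and 9.39 at day 12 and 9.21 and 8.39 at day 19. Of 23 genes of glucose use 18 (78.3%) were lower (median -0.084), against 57.5% of all genes tested. The insulin-responsive transporter Slc2a4 was 10.59 and 10.52 against 10.35 and 9.86, and the basal transporter Slc2a1 went the other way, with 8.63 and 8.66 against 8.85 and 9.34; its other probe set gave 0.038. In lipid synthesis Scd4, a desaturase of a family with close copies, was 7.26 and 7.39 against 8.07 and 7.99, 0.71 ± 0.14, whereas Scd1 was 8.53 on replicate 1 and 6.63 on replicate 2, around 7.60 and 8.02 at day 12. The 13 genes of that list had a median of 0.0014, and 19 cholesterol genes one of -0.097. There the squalene epoxidase gene Sqle was 4.82 and 5.02 against 5.44 and 5.33. Sqle was tested only because of its day 19 mean and could not have been lower.

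Potassium channel genes were lower at day 19. Of 19 tested, 18 (94.7%) were lower, against 57.5% of all genes tested, with a median of -0.31. Without overlap 10 (52.6%) lay below, against 23.5% of all genes tested. The list averaged -0.14 on replicate 1 and -0.46 on replicate 2. Kcnh2, the ERG channel of late repolarisation, was 8.22 and 8.20 at day 12 and 7.86 and 7.59 at day 19, -0.49 ± 0.16. Kcnj8, a pore subunit of the ATP-sensitive channel that is also a pericyte marker, was 9.09 and 8.98 against 8.62 and 8.60. Its partner Abcc9 was 11.22 and 10.94 against 10.82 and 10.73. Kcnj3, the acetylcholine-gated atrial channel, was 9.67 and 9.23 against 9.11 and 8.82, lower also on the array with high atrial markers. The silent subunit Kcnv2 was 7.67 and 7.54 against 7.31 and 6.71. Kcnd2 of the fast transient outward current was 9.14 and 8.61 against 8.54 and 8.50, while for its relative Kcnd3 replicate 1 equalled the lower day 12 array (6.00 and 6.17 against 6.00 and 5.27). The inward rectifier gene Kcnj2 was 8.40 and 8.09 against 8.06 and 7.50.

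Calcium handling genes were lower in 15 of 19 cases (78.9%), against 57.5% of all genes tested, with a median of -0.18. Without overlap 11 (57.9%) lay below, against 23.5% of all genes tested. Trdn, which anchors calsequestrin at the release channel, was 10.02 and 9.60 at day 12 and 9.45 and 9.25 at day 19. Hrc, a calcium-binding protein of the same store, was 9.89 and 9.49 against 9.43 and 8.95. The release channel gene Ryr2 differed by -0.31 and the pump gene Atp2a2 by -0.15. Jsrp1, a protein of the muscle triad, went against the list, with 5.83 and 5.85 against 6.20 and 6.26. The list mean was 0.21 on replicate 1 and -0.37 on replicate 2. Sln, an atrial regulator of the pump, ranged from 4.28 to 10.62 over the 4 arrays and alone set the sign of the first mean: over the 18 other genes the means were -0.031 and -0.30.

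In the extracellular matrix the regulators of turnover differed more than the fibrous proteins. Of 19 proteases and inhibitors 13 were higher (median 0.21). Without overlap 10 (52.6%) lay above and 4 (21.1%) below, against 16.3% and 23.5% of all genes tested. Adamts4 and Mmp3, with day 12 means of 4.78 and 4.85, were tested only because of day 19 and could not have been lower. Timp1 led, as given above. Mmp19 was 5.90 and 6.28 at day 12 and 6.76 and 6.71 at day 19, 0.65 ± 0.18, and the membrane-type protease Mmp14 was 7.13 and 7.19 against 7.55 and 7.84. Plat, tissue plasminogen activator, was 7.62 and 7.67 against 8.06 and 7.95. Timp4, the inhibitor enriched in heart, went the other way, with 8.85 and 8.99 against 8.49 and 7.86, -0.74 ± 0.24. Mmp2, the gelatinase of fibroblasts, was 10.16 and 10.16 against 9.93 and 9.71.

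The growth factor-binding protein Ccn2 was 7.07 and 7.57 at day 12 and 8.76 and 8.36 at day 19, 1.24 ± 0.24 or 2.36-fold, with no overlap. A second, dimmer probe set of Ccn2 gave -0.28. Tnc, tenascin C, was 5.57 and 5.21 against 5.78 and 6.06, and the proteoglycan Vcan was 6.82 and 6.75 against 7.31 and 7.22, 0.48 ± 0.14. The collagen cross-linking enzyme Lox was 4.95 and 4.94 against 5.56 and 5.30. Lox was tested only because of its day 19 mean and could not have been lower. The collagens themselves did not separate: Col1a1 was 8.06 and 8.07 against 8.44 and 7.93, and Col3a1 was 7.90 and 7.82 against 8.34 and 7.78, higher on replicate 1 and lower on replicate 2. The list of 18 collagen and cross-linking genes had a median of 0.040 and averaged 0.21 and -0.25 on replicates 1 and 2. Matricellular and elastic fibre genes averaged 0.50 and -0.32, and leucine-rich proteoglycans 0.20 and -0.30. Basement membrane genes were lower in 12 of 13 cases (92.3%, median -0.20), against 57.5% of all genes tested. Without overlap 8 (61.5%) lay below, against 23.5% of all genes tested. Lama2 was 9.61 and 9.55 against 9.30 and 8.91.

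Markers of cells that make the matrix and the vessels gave a mixed picture. Fibroblast markers averaged 0.17 on replicate 1 and -0.36 on replicate 2. Within them Dpep1, a membrane dipeptidase, was 9.52 and 9.64 at day 12 and 10.16 and 10.66 at day 19, while Scara5, a scavenger receptor, was 7.06 and 7.23 against 6.64 and 6.28. Mural cell markers were lower in 12 of 13 cases (92.3%), against 57.5% of all genes tested, with a median of -0.31. Without overlap 7 (53.8%) lay below, against 23.5% of all genes tested. Notch3 was 7.43 and 7.20 against 6.96 and 6.81, Myh11, the smooth muscle myosin, 7.56 and 7.41 against 7.19 and 7.0, and Pdgfrb 9.49 and 9.25 against 9.0 and 9.02. The 2 day 12 arrays of that list differed by 0.24 on average, replicate 2 being the higher. Kcnj8 and Abcc9 belong to this list and to that of the channels.

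Endothelial markers were lower in 13 of 17 cases (76.5%, median -0.19), against 57.5% of all genes tested. The orphan receptor Tie1 was 8.38 and 8.33 at day 12 and 8.02 and 7.55 at day 19, and the VEGF receptor Kdr was 10.06 and 9.82 against 9.63 and 9.33. Aplnr, the apelin receptor, was 9.05 and 8.44 against 8.03 and 6.58, -1.44 ± 0.51, the largest negative difference of all genes tested. The 2 day 19 arrays lay 1.45 apart for Aplnr, and the gap between the groups was 0.42. The ligand of this receptor, Apln, was 7.71 and 7.28 against 7.07 and 7.10. Angpt2 was 5.66 and 5.47 against 5.77 and 7.04, high on replicate 2. In the vascular growth list 7 of 21 were higher (median -0.090) and 66.7% lower, against 57.5% of all genes tested. Plvap and Vwf were the highest of the 4 endothelial markers with a positive difference, Vwf with 7.50 and 8.65 against 9.40 and 8.26.

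Chemokines and acute-phase proteins were mostly higher on both late arrays, and by more on replicate 2. Of 22 chemokines and cytokines tested, 20 were higher, with a median of 1.06. Without overlap 15 (68.2%) lay above, against 16.3% of all genes tested. Several members, such as Ccl12, Il1b and Cxcl1 with day 12 means of 4.09, 4.72 and 4.78, reached the filter only at day 19. These could not have been lower. The list averaged 0.46 on replicate 1 and 1.97 on replicate 2. Besides Cxcl13, Ccl2 and Ccl7, the macrophage chemokine Ccl6 was 6.98 and 7.33 at day 12 and 8.18 and 9.35 at day 19, Ccl9 was 7.49 and 7.52 against 8.15 and 9.41, and the neutrophil chemokine Cxcl1 was 4.85 and 4.70 against 5.39 and 5.96. Ccl11, which attracts eosinophils, was 6.34 and 6.50 against 6.79 and 7.17. Ccl5 was below the day 12 arrays on replicate 1 and high on replicate 2 (6.32 and 6.54 against 5.90 and 10.67). All 16 complement and acute-phase genes tested were higher (median 0.73), 13 (81.2%) of them without overlap, against 16.3% of all genes tested. Some of these, such as C2 and C6 with day 12 means of 4.70 and 4.69, were tested only because of day 19. These could not have been lower. Itih4 was 5.28 and 5.58 against 6.24 and 6.10, 0.74 ± 0.17, haptoglobin (Hp) was 5.20 and 5.34 against 5.86 and 6.44, and ceruloplasmin (Cp) was 9.63 and 9.50 against 9.88 and 10.31. Saa3 was 4.44 and 4.40 against 4.79 and 10.08, so its difference of 3.01 came almost wholly from replicate 2.

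Macrophage markers were higher in 21 of 22 cases with a median of 0.71, and 4.55% were lower, against 57.5% of all genes tested. The list averaged 0.12 on replicate 1 and 1.15 on replicate 2. Without overlap 10 (45.5%) lay above, against 16.3% of all genes tested. Itgax, with a day 12 mean of 4.83, was tested only because of day 19 and could not have been lower. Lyve1 and Folr2, markers of resident macrophages, were the 2 with an unadjusted p under 0.05 in limma: Lyve1 was 9.14 and 9.32 at day 12 and 9.72 and 10.08 at day 19, 0.67 ± 0.18, and Folr2 was 9.27 and 9.52 against 9.76 and 10.35. Cd163, another resident marker, was lower, with 7.0 and 7.15 against 6.86 and 6.48. Ccr2, the receptor of recruited monocytes, was 5.46 and 5.73 against 5.54 and 7.13, inside the day 12 range on replicate 1. Of 14 neutrophil markers only Csf3r, Cxcr2 and Mmp9 reached the filter, and S100a8 stood at 3.65 and 4.10 against 4.37 and 5.68, below the filter on 3 of the arrays.

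Interferon response genes were high on day 19 replicate 2 and mostly below the day 12 mean on replicate 1. Of 23 tested, 22 had a positive difference, with a median of 1.01, yet 0 of 23 were free of overlap in either direction. On replicate 1 only 2 of 23 were above the day 12 mean and the list averaged -0.37, while on replicate 2 22 of 23 were above it and the average was 2.36. Their known promoter element is the interferon-stimulated response element, here read on both strands as GAAA, any 2 bases and GAAA. The windows of Isg15 and Ifit1 are printed with that pattern in capitals, as examples of the members that hold it. Isg15 lies on the minus strand at chr4:156200769-156201068 and Ifit1 on the plus strand at chr19:34640639-34640938 (RefSeq, GRCm38.p6).
Isg15: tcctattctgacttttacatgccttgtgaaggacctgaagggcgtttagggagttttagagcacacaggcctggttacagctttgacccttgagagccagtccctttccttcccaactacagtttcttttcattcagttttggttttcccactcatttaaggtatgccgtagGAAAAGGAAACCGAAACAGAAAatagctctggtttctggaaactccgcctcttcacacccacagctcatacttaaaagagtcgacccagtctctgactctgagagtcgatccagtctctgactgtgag
Ifit1: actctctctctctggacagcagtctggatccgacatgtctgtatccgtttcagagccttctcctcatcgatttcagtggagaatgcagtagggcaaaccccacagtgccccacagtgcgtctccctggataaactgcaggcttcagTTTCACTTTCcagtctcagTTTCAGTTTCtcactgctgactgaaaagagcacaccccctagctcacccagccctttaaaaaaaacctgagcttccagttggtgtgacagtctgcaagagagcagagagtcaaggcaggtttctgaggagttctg
The 3 matches in Isg15 overlap each other and appear as 1 stretch of capitals. The pattern stood in the windows of 10 of the 18 members that have one, or 47.6% of 21 windows, against 3.44% of all windows.

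On the arrays Ifit1, an RNA-binding antiviral protein, was 6.85 and 7.0 at day 12 and 6.91 and 10.12 at day 19. Isg15, a ubiquitin-like protein, was 4.96 and 4.49 against 4.82 and 6.19. Isg15 was tested only because of its day 19 mean and could not have been lower. The interferon-inducible GTPase gene Igtp was 7.57 and 8.10 against 7.76 and 12.18, and Iigp1 was 7.96 and 8.21 against 6.82 and 11.52. Cxcl10 was 5.70 and 5.78 against 5.45 and 10.73, and Cxcl9 8.76 and 8.43 against 7.35 and 11.87. Set against the day 12 mean, Cxcl9 gave -1.24 on replicate 1 and 3.27 on replicate 2, and Iigp1 gave -1.27 and 3.44. MHC class II genes followed the same array: H2-Ab1 was 9.38 and 9.86 against 9.13 and 12.15, and the class II transactivator Ciita was 6.03 and 6.19 against 5.90 and 8.05. Their list averaged -0.20 and 1.87. Of 10 lymphocyte markers tested the average was -0.022 and 1.63, led by the cytotoxic granule genes Gzmb (3.93 and 3.62 against 4.07 and 8.79) and Nkg7 (5.84 and 5.73 against 5.60 and 9.47). Some of the 10, such as Gzmb and Cd3g with day 12 means of 3.8 and 4.4, were tested only because of day 19. Those could not have been lower. The B cell markers Cd79b and Ighm differed by -0.016 and -0.038, and Ms4a1 stayed under the filter on all 4 arrays.

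Atrial markers divided the arrays in another way, with 1 high array in each group. The list averaged 1.70 above the day 12 mean on day 19 replicate 1 and -0.45 on replicate 2, and day 12 replicate 3 lay 0.96 above day 12 replicate 2. Beside Myl7, Sln was 4.28 and 7.89 at day 12 and 10.62 and 4.52 at day 19, and Mybphl was 4.98 and 6.06 against 8.44 and 5.10. Bmp10, a growth factor of the right atrium, was 4.60 and 4.67 against 8.06 and 5.12, high on day 19 replicate 1 and not on day 12 replicate 3. Bmp10 was tested only because of its day 19 mean and could not have been lower. Mesothelial markers followed, with averages of 1.01 and 0.11 and a difference of 0.41 between the day 12 arrays: Upk1b was 4.50 and 5.63 against 7.52 and 5.13. Aldh1a2, a retinoic acid-forming enzyme of the epicardium in the same list, was even on both late arrays, with 6.04 and 6.09 against 6.68 and 6.95, 0.75 ± 0.16. Adipocyte markers averaged 0.49 and -0.19 and differed by 0.48 within day 12. Thbs1, thrombospondin 1, was 5.97 and 8.38 against 9.27 and 7.18, in the same order of arrays. The part of atrial or mesothelial tissue in the other results was not tested.

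**Figure D4:**
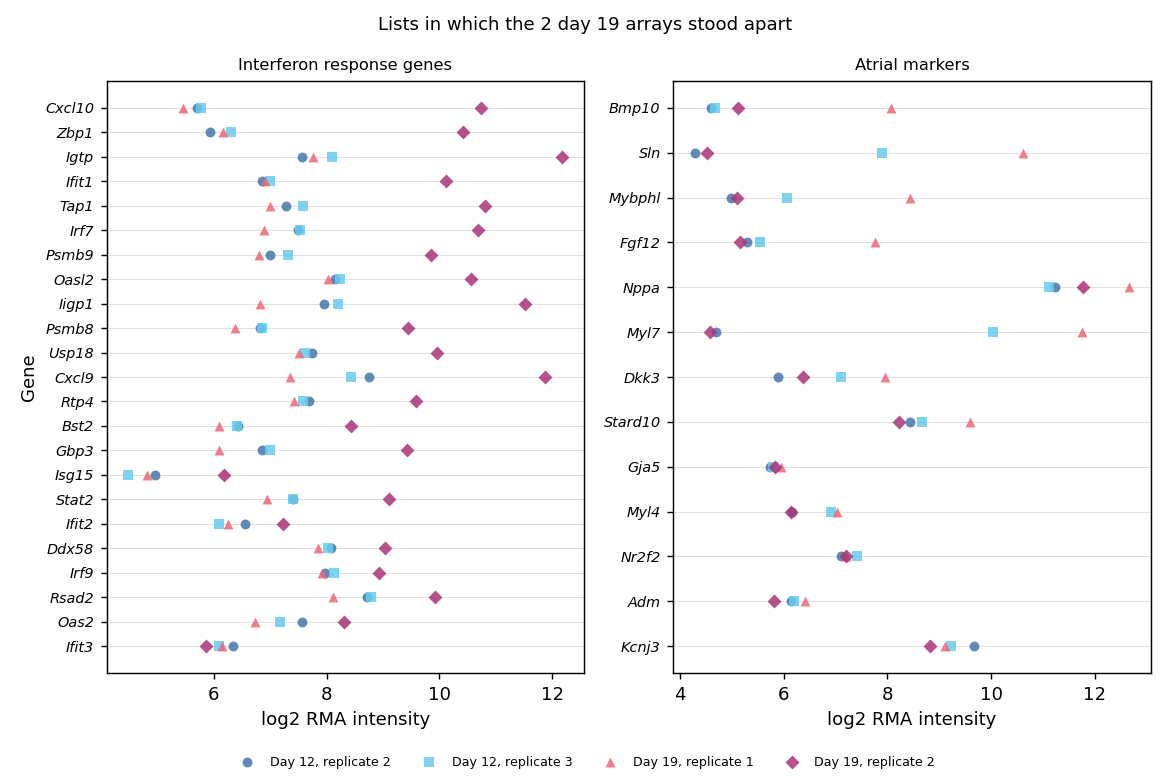
Log2 RMA intensity (horizontal axis) of the 23 tested interferon response genes (left) and the 13 tested atrial markers (right), 1 row per gene and 1 marker per array. In the left panel day 19 replicate 2 lies to the right of the other 3 arrays in 22 of 23 rows; in the right panel day 19 replicate 1 is highest for Bmp10, Sln, Mybphl, Fgf12 and Myl7, with day 12 replicate 3 next for Sln, Mybphl and Myl7.

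The remaining lists held smaller differences. Of 32 cell cycle genes 25 were higher with a median of 0.16, but the average on replicate 1 was 0.0016 and that on replicate 2 was 0.30. Day 12 replicate 3 was 0.25 below day 12 replicate 2 in this list, and 7 genes (21.9%) lay above without overlap, against 16.3% of all genes tested. Top2a, a topoisomerase of dividing cells, was 5.63 and 5.16 at day 12 and 5.73 and 6.45 at day 19, and Ccna2, cyclin A2, was 6.27 and 5.83 against 6.42 and 6.69. Ribosomal protein genes were higher in 20 of 26 cases, with a median of 0.093. Without overlap 12 of 26 (46.2%) lay above, against 16.3% of all genes tested. For Rps16 the arrays gave 5.46 and 5.41 against 5.78 and 5.77. Of 7 red cell genes tested 6 (85.7%) were lower, against 57.5% of all genes tested. They were led by Car2, a carbonic anhydrase, with 7.43 and 7.73 against 6.73 and 6.99, -0.71 ± 0.18. The red cell anion exchanger Slc4a1 differed by -0.093. Nerve and Schwann cell markers had a median of 0.018. The plot of list means by array sets all 40 lists side by side.

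**Figure D5:**
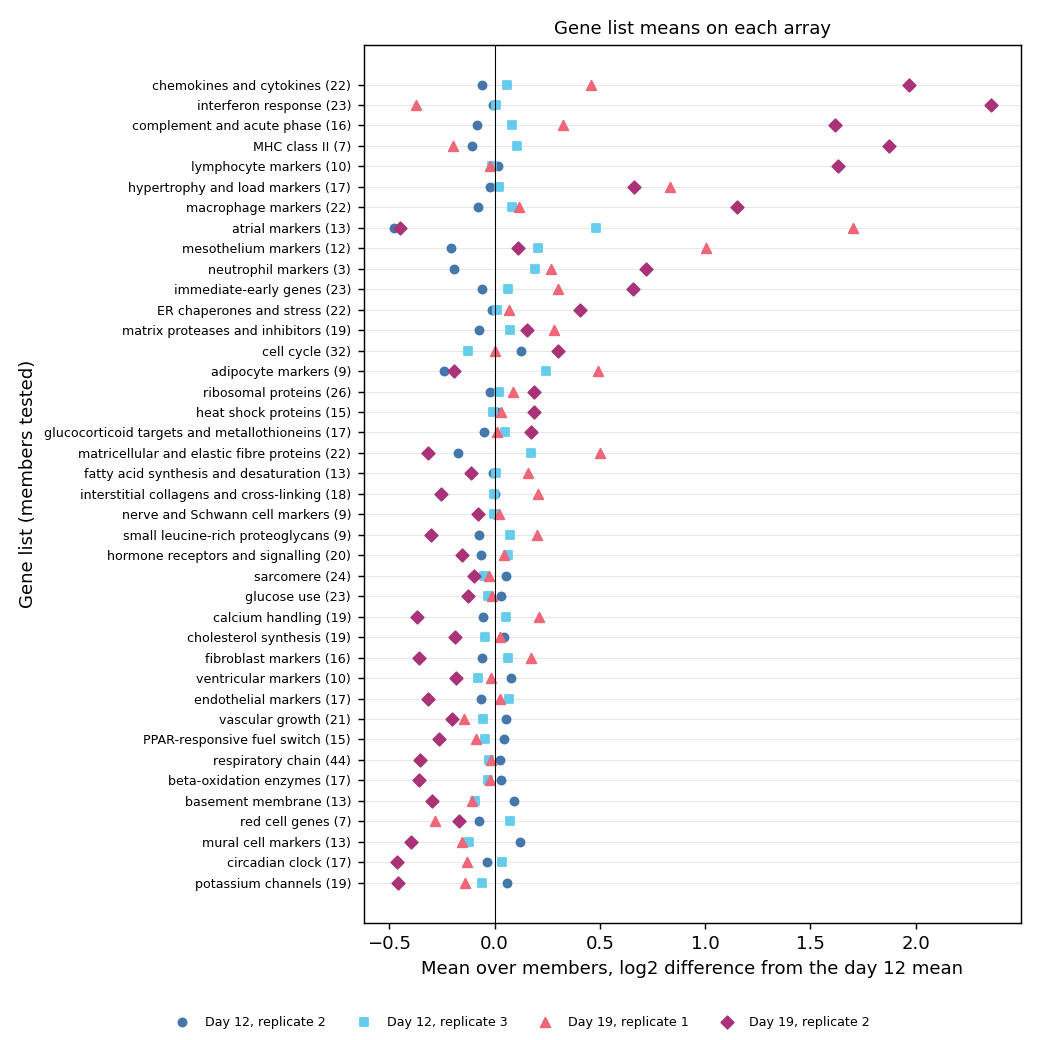
Mean of each of the 40 gene lists on each array, as the log2 difference from the day 12 mean (horizontal axis); 1 row per list with the number of members tested, and 1 marker per array, with no error bars because each marker is 1 array. Interferon, MHC class II and lymphocyte lists are high on day 19 replicate 2 only. Atrial and mesothelium lists are highest on day 19 replicate 1, and in them day 12 replicate 3 lies above day 12 replicate 2 by 0.96 and 0.41. The hypertrophy list, at 0.83 and 0.66, is high on both day 19 arrays.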

How the data were processed

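Left ventricle RNA (100 ng of total RNA) was read on one-colour arrays. The authors deposited 1 log2 value per probe set and array; the submitters' processing notes name RMA and the Affymetrix Expression Console, and give neither versions nor a build. RMA normalizes between arrays, so a change in total RNA is not seen.

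Of 34365 probe sets, 23521 carried 1 gene symbol, 1814 several and 9030 were unnamed here; 23328 matched RefSeq by Entrez identifier. The probe set with the highest mean over the 4 arrays stood for a gene. A 2-group linear model was fitted to the 4 arrays with limma 3.58.1 in R 4.3.3 (2 residual and 3.06 prior degrees of freedom; two-sided; Benjamini-Hochberg over 13588 genes; threshold 0.05). Tested on simulated data of that size, it recovered 4.5% of genes changed 2-fold and 79.4% of those changed 4-fold, with 3.7 false calls per run. The simulated noise was independent and had the same variance on all 4 arrays. In the data the standard deviation of the pair difference was 0.558 within day 19 and 0.238 within day 12. These rates therefore do not tell what share of real changes was found here. The number of arrays limits the precision.

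Named genes were the 12 with the widest gap in each direction, up to 4 members of each list by p, for lists whose day 19 means differed by over 0.5 up to 4 by the difference between these arrays, and Myh7, Myh6, Nppa, Nppb, Acta1, Col1a1, Col3a1, Pdk4 and Angptl4. Predicted, receptor-family and small RNA genes were left out of the ranking. The text adds other members of the lists, and these were chosen after their values were seen. The members and the 40 lists (731 genes measured, 673 tested) were chosen with earlier results of these data known. Alternatives covered all 8 arrays in 1 fit, variance prior, array weights, filters, probe set averages, re-centred arrays and each array left out.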

Additional observations from a re-analysis of the deposited data

How the results depend on the processing

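In limma no gene passed with all 8 arrays in 1 fit, a trended and robust variance, array weights, no filter, a filter on the mean of the 4 arrays, a stricter filter, the mean of the probe sets or arrays centred on the median (smallest adjusted p 0.667 to 0.832, with 368 to 919 genes at an unadjusted p under 0.05). With 1 array left out the lone array of its group is assumed to vary like the other group, and the number of genes called ranged from 0 to 1057 higher and from 0 to 1445 lower; the highest counts were those without day 19 replicate 1, and the 3 genes called without day 19 replicate 2 were Bmp10, Cxcl13 and Fgf12. Genes with both late arrays above numbered 3604 to 4648, and below 4586 to 7120, with an array left out, which leaves fewer values to overlap. Without a filter they numbered 4046 above, with a stricter filter 1360, and centred 2708 above and 2804 below. No paired analysis was possible because the groups share only 1 replicate number.

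Of 214 genes picked by the naming rules, 171 kept their sign with each array left out. None of the 214 changed sign under the other alternatives in which it was tested. The other 43 changed sign, and over the arrays left out they ranged as follows: Acta1 -0.80 to 0.64, Aspn -0.94 to 0.081, C6 -0.11 to 1.55, Car3 -1.09 to 1.94, Ccl5 -0.53 to 4.25, Cd3e -0.032 to 1.35, Cidec -0.20 to 1.00, Ciita -0.21 to 1.94, Col1a1 -0.13 to 0.38, Col3a1 -0.074 to 0.48, Comp -0.71 to 0.77, Cxcl10 -0.28 to 5.0, Cxcl9 -1.24 to 3.27, Elovl6 -0.13 to 0.62, Fgf12 -0.25 to 2.35, Fmod -0.33 to 0.73, Foxd3 -0.016 to 0.17, Gpm6a -0.41 to 1.22, H2-Aa -0.55 to 2.02, H2-Ab1 -0.49 to 2.53, H2-DMa -0.19 to 3.05, H2-Eb1 -0.30 to 2.49, Ifit1 -0.013 to 3.20, Igtp -0.079 to 4.34, Iigp1 -1.27 to 3.44, Jph2 -0.54 to 0.021, Lum -0.81 to 0.18, Mfap4 -1.03 to 0.43, Mfap5 -0.37 to 0.77, Mybphl -0.42 to 2.91, Myh6 -0.15 to 0.0092, Myl7 -2.80 to 4.40, Nkg7 -0.19 to 3.68, Pck1 -0.11 to 0.52, Plin1 -0.0022 to 0.44, Postn -1.11 to 0.59, Prelp -0.43 to 0.15, Retn -0.59 to 1.00, Slc8a1 -0.50 to 0.017, Sln -1.56 to 4.54, Tcf21 -0.65 to 0.40, Thbs1 -0.15 to 2.26, Upk3b -0.15 to 1.69. Members that the text adds beyond the 214 are outside this count, and some of them also changed sign. Ccr2 gave -0.056 on day 19 replicate 1 and 1.53 on replicate 2, and Fhl1 gave 0.33 and -0.23. The cause was not tested. In an alternative chosen after seeing the data, the calcium handling mean on day 19 replicate 1 turned from 0.21 to -0.031 without Sln.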
